A study of Homo sapiens with 8 samples.

Results

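YAP1 and its relative TAZ (gene WWTR1), the 4 TEAD transcription factors TEAD1 to TEAD4 and the Vestigial-like cofactors VGLL1, VGLL3 and VGLL4 were followed through 8 RNA-seq libraries of human prostate cancer cells. The genes were taken by name, with Ensembl identifiers matched to symbols, and all 9 stood among the 57905 genes of the deposited count table. EnzaR cells resist enzalutamide, a drug of the antiandrogen class, and grew with 10 uM of it in medium holding 10% serum. For 48 h they carried either a control siRNA (siNC, 2 libraries) or siRNA to YAP1 (siYAP1, 2 libraries), each at 40 nM. LNCaP, a prostate cancer line that responds to androgen, was grown without enzalutamide and gave 4 libraries, 1 per treatment. The first was a vehicle control, and the others came from cells given, for 48 h, extracellular vesicles (EVs) of EnzaR cells that had received control siRNA (EV-siNC) or had been depleted of YAP1 (EV-siYAP1) or of COUP-TFII, a nuclear receptor (EV-siCII). The labels name neither the vehicle nor the parent of the EnzaR line, and do not say that the EnzaR replicates were separate cultures. A p-value is therefore set by how far these libraries scatter, and that scatter may be purely technical.

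YAP1 and TAZ are co-activators that do not bind DNA themselves. Kinases of the Hippo pathway (STK4 and STK3, which activate LATS1 and LATS2) phosphorylate them and hold them in the cytoplasm, and when the kinases are quiet they enter the nucleus and bind TEAD proteins on DNA. VGLL proteins bind the TEAD surface that YAP1 and TAZ use, and VGLL4 is known as a competitor of YAP1 for TEADs. In prostate epithelium YAP1 is known from basal cells and from work on castration-resistant cancer.

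The promoters of the gene that the siRNA targeted and of 2 partners whose transcripts were lower in EnzaR than in LNCaP libraries are shown first. Promoter windows of 250 bases before to 50 bases after a start site were taken from RefSeq (GRCh38.p14), where 7 of the 9 genes matched with 13 windows; TEAD1 and TEAD4 did not match. Each window was searched on both strands for GGAATG, the core of the MCAT element that TEAD proteins bind, which reads CATTCC on the opposite strand, and no other motif was searched. It stood in 2 of the 13 windows, those of YAP1 and VGLL1, beside 14% of all 35116 windows of the same length. A match describes letters only and is no measure of binding. Capitals mark the motif, each sequence runs 5′ to 3′ on the strand of its gene, and the VGLL4 window is the outermost of its starts.
YAP1 (chr11:102110197-102110496, + strand): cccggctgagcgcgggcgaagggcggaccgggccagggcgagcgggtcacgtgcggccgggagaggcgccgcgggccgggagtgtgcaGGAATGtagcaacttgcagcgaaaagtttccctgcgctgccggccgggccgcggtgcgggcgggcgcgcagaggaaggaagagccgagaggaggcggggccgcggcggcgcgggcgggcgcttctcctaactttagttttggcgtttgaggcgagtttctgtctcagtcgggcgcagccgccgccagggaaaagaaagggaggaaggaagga
TEAD2 (chr19:49362367-49362666, - strand): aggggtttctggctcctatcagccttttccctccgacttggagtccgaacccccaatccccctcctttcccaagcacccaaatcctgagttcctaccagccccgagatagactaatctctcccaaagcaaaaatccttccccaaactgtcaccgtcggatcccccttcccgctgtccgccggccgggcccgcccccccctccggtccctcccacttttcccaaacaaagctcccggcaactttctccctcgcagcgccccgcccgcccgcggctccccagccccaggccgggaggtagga
TEAD2, inner start (chr19:49361468-49361767, - strand): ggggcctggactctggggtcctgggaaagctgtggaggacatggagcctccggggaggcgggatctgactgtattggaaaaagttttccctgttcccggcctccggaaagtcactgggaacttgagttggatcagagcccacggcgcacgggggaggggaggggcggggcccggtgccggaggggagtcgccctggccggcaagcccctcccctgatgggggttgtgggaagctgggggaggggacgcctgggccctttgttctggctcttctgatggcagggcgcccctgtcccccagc
VGLL4 (chr3:11720490-11720789, - strand): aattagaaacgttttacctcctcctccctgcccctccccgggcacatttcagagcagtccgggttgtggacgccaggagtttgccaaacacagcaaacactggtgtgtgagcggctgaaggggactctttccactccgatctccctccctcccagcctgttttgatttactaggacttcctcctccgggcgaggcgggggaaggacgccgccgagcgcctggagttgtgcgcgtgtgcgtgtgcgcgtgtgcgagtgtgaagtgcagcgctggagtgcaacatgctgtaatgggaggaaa
In the YAP1 window the motif lay on the gene's own strand, 162 bases before the start, and the windows of TEAD2 and VGLL4 shown here held no match. The deposited counts are per gene, so which of several starts was used was not measured.

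Total counts lay between 16682669 and 18248939 per library, and 3 counts, the limit that a count of 0 allows, correspond to 0.16 to 0.198 CPM, the count scaled to library size. CPM here, this limit included, are scaled by TMM (a factor per library that aligns most genes) over all 8 libraries and serve to compare 1 gene between libraries. Levels of different genes are compared per length, as the deposited FPKM (read fragments per kilobase, scaled to the library total). Luminal prostate markers were read in both lines. No reference profile of either line was used, so these values do not check the line labels. KLK3, which encodes prostate-specific antigen, was at 1160 to 1308 CPM in EnzaR and 41.3 to 47.6 CPM in LNCaP libraries, and the luminal keratin gene KRT18 at 516 to 669 and 534 to 633 CPM. Some other luminal markers were lower in EnzaR than in LNCaP libraries, with KRT8 at 669 to 831 and 1029.5 to 1329 CPM, FOLH1 at 169 to 191 and 375 to 461, HOXB13 at 370 to 428 and 507 to 600.5, and FOXA1 at 268 to 299 and 440.3 to 478. Of 6 basal markers, TP63 and KRT5 were at 0 in all 8 libraries. DST was at 10.6 and 13.2 CPM in siNC, 5.94 and 7.92 in siYAP1 and 2.7 to 4.33 in LNCaP, lower in siYAP1 than in siNC (log2 fold change -0.78, SE 0.199, edgeR adjusted p = 0.0184) and higher in siNC than in the LNCaP control (2.14, edgeR adjusted p = 1.34e-06). NGFR had 0 to 3 counts in EnzaR and 33 to 50 in LNCaP libraries. A list of 9 markers of other prostate lines, such as VIM and AXL, summed to 32.0 and 29.5 CPM in siNC, 19.0 and 23.2 CPM in siYAP1, and 296 to 314 CPM in LNCaP libraries. Of the 4 of them tested in siYAP1 against siNC, KRT7 (-1.69, edgeR adjusted p = 0.00952) and EPHA2 (-0.52, edgeR adjusted p = 0.0305) were lower. The LNCaP sum was mostly VIM, with 261 to 285 CPM in LNCaP and 0 to 2.10 in EnzaR libraries, while AXL, CAV1 and CAV2 had at most 4 counts in any library. Stromal and blood markers, 9 of them in the table, summed to 27.8 to 35.2 CPM in EnzaR and 116 to 130 CPM in LNCaP, with PTPRC at 0. In siYAP1 replicate 2 alone among the EnzaR libraries, COL3A1 had 58 counts and DCN, LUM and COL1A2 had 7, 6 and 6. The other EnzaR libraries had 0 of each. In LNCaP libraries COL3A1 had 162 to 198 counts, and COL1A1, at 94.1 to 110 CPM, made up most of the stromal and blood sum. VIM had 36 counts in siYAP1 replicate 2, 0 in siYAP1 replicate 1, and 13 and 18 in siNC. The part of these differences in the results was not tested, and fewer cells with a transcript and less transcript per cell cannot be told apart.

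YAP1 (ENSG00000137693, hg19 chr11:101981192-102104154, + strand) was the co-activator present in both lines. Its level in siNC replicates 1 and 2 was 59.6 and 49.1 CPM, and in siYAP1 replicates 1 and 2 it was 6.0 and 7.33 CPM. All 4 LNCaP libraries lay in the range of siNC or above it, with 58.8 CPM in the control, 67.4 in EV-siNC, 61.9 in EV-siYAP1 and 66.3 in EV-siCII. TAZ, the other co-activator (WWTR1, ENSG00000018408, chr3:149235022-149454501, - strand), was near the limit of detection everywhere, with 3 and 4 counts in siNC, 6 and 6 in siYAP1 and 2 in each LNCaP library. Per length, YAP1 exceeded WWTR1 by 377 times in siNC (95% exact binomial interval of the ratio of counts 183 to 939, counting error only). The ratio was 24.2 (13.6 to 47.5) in siYAP1 and 779 (395 to 1805) over the 4 LNCaP libraries. YAP1 was thus the more abundant of the pair in siYAP1 libraries too.

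**Figure D1:**
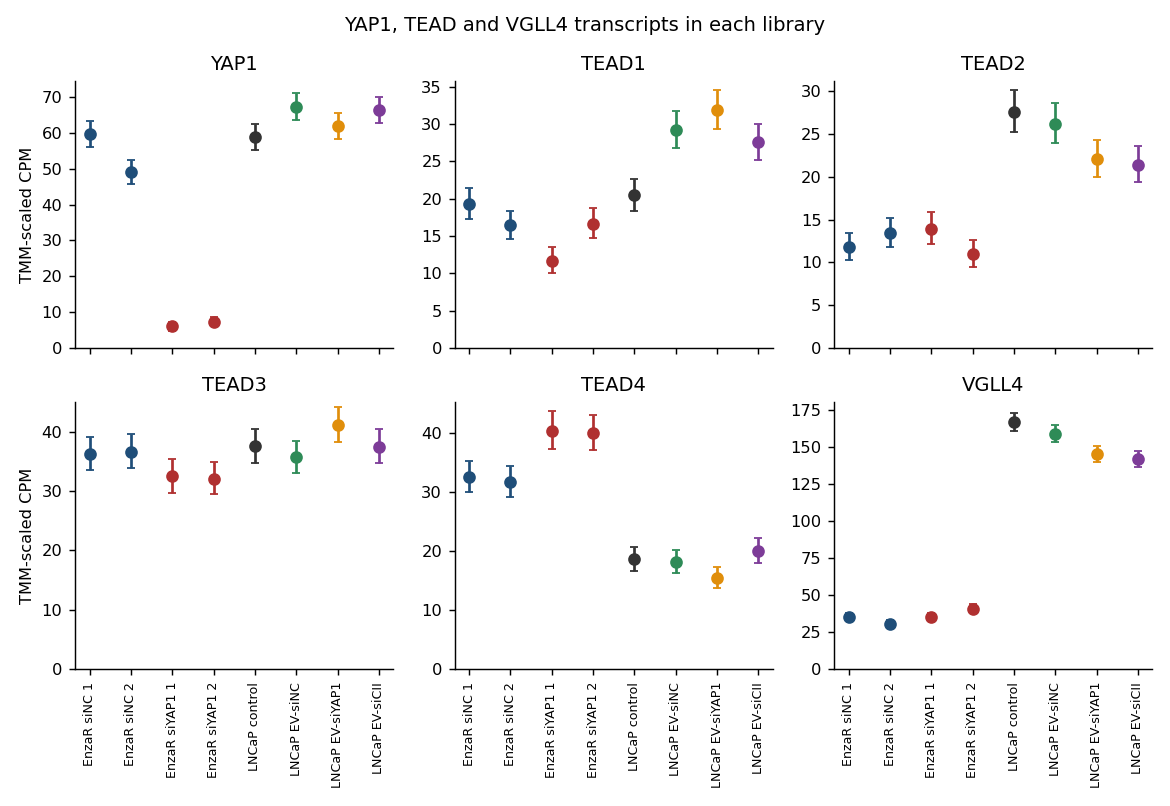
TMM-scaled CPM (vertical axes, each from 0) of YAP1, TEAD1 to TEAD4 and VGLL4 in each of the 8 libraries, with 95% exact Poisson intervals for counting error. YAP1 is low only in the 2 siYAP1 libraries, at 6.0 and 7.33 CPM, while VGLL4 and TEAD2 are high, and TEAD4 low, in the 4 LNCaP libraries.

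The 4 TEAD genes encode the DNA-binding partners and were all expressed. TEAD1 (ENSG00000187079, chr11:12695969-12966298, + strand) was at 19.3 and 16.4 CPM in siNC, 11.7 and 16.6 in siYAP1, and 20.4, 29.2, 31.8 and 27.5 in LNCaP control, EV-siNC, EV-siYAP1 and EV-siCII. Every LNCaP library was above every EnzaR library, and the 2 siYAP1 libraries differed from each other more than the group means did. TEAD2 (ENSG00000074219, chr19:49843852-49865714, - strand) was at 11.8 and 13.4 CPM in siNC, 13.9 and 10.9 in siYAP1, and 27.6, 26.2, 22.1 and 21.4 in the LNCaP libraries in the same order. The lines did not overlap, and the siYAP1 and siNC libraries did. TEAD3 (ENSG00000007866, chr6:35441374-35464853, - strand) varied least over the 8 libraries, at 36.2 and 36.6 CPM in siNC, 32.5 and 32.1 in siYAP1, and 37.6, 35.7, 41.2 and 37.5 in LNCaP. TEAD4 (ENSG00000197905, chr12:3068496-3149839, + strand) was at 32.6 and 31.7 CPM in siNC, 40.4 and 40.0 in siYAP1, and 18.6, 18.2, 15.5 and 20.0 in LNCaP. Its order was the reverse of that of TEAD2, with every EnzaR library above every LNCaP library. TEAD2 overlaps CD37 on the opposite strand, which had 13 to 49 counts in EnzaR and 106 to 153 in LNCaP libraries, against 188 to 242 and 392 to 490 for TEAD2. It also overlaps DKKL1 on the opposite strand, with 18 to 30 counts in EnzaR and 64 to 82 in LNCaP libraries. On its own strand TEAD2 overlaps ENSG00000197813, with 17 to 35 counts in EnzaR and 52 to 63 in LNCaP libraries. Which strand was counted is not stated, so reads of TEAD2 and of these genes may not be separated, and their part in its difference was not tested.

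Of the cofactors, VGLL4 alone was expressed. VGLL4 (ENSG00000144560, chr3:11597544-11762220, - strand) was at 35.3 and 30.3 CPM in siNC, 35.2 and 40.6 in siYAP1, and 167, 159, 145 and 142 in LNCaP control, EV-siNC, EV-siYAP1 and EV-siCII. The lowest LNCaP library was thus far above the highest EnzaR library. Its locus overlaps ATG7 on the opposite strand, which had 482 to 612 counts. VGLL1 (ENSG00000102243, chrX:135614311-135638966, + strand) had 0 counts in all 8 libraries, which allows up to 0.198 CPM in siYAP1 replicate 1, where that limit is highest. VGLL3 (ENSG00000206538, chr3:86987119-87040269, - strand) had 3 counts in siNC replicate 1 and 0 elsewhere.

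Per length, the sum of the 4 TEADs was nearly the same in all 8 libraries, at 31.1 to 32.5 FPKM, while its makeup differed. With TMM scaling the sum was 32.0 in both siNC libraries, 33.3 and 34.2 in siYAP1 and 30.7 to 31.7 in LNCaP (on the same scale as FPKM). The order of the groups thus depended on the scaling. The sum, the shares and the ratios to it were not recomputed with the correction for GC content and transcript length used below. In siNC against the LNCaP control that correction put TEAD1 at -0.55, TEAD2 at -0.69, TEAD3 at 0.47 and TEAD4 at 1.30 (log2 fold change). Whether the sum stays as even under it was not tested. In siNC, TEAD4 made up 44.3% ± 0.89 of the sum, TEAD3 37.4% ± 0.29, TEAD2 13.2% ± 1.18 and TEAD1 5.15% ± 0.59 (SD, n = 2). In siYAP1 the shares were 52.4% ± 0.56 for TEAD4, 31.4% ± 0.29 for TEAD3, 12.3% ± 1.88 for TEAD2 and 3.89% ± 1.03 for TEAD1 (SD, n = 2). TEAD4 thus led in EnzaR cells, and in the LNCaP control TEAD3 led with 38.9%. There TEAD2 (29.2%) and TEAD4 (25.8%) followed, and TEAD1 was again last with 5.97%. Over the 4 LNCaP libraries TEAD3 stayed first, with 37.6% to 44.0%, and TEAD2 and TEAD4 changed places between libraries.

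**Figure D2:**
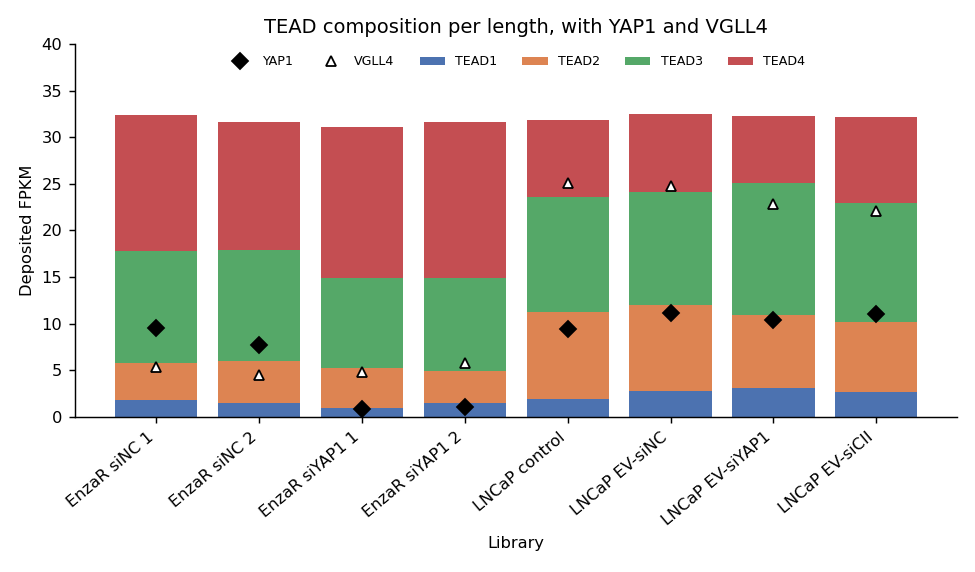
Deposited FPKM of TEAD1 to TEAD4 stacked for each of the 8 libraries, with YAP1 (diamonds) and VGLL4 (triangles) on the same axis. The stacks end between 31.1 and 32.5 FPKM, and TEAD4 fills more and TEAD2 less of them in the 4 EnzaR than in the 4 LNCaP libraries.

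The stoichiometry of the transcripts differed between the lines more for VGLL4 than for YAP1. YAP1 was 0.296 and 0.244 times the TEAD sum in siNC, 0.0279 and 0.0349 times in siYAP1, and 0.295 to 0.343 times in the LNCaP libraries. VGLL4 was 0.142 to 0.182 times the TEAD sum in the EnzaR and 0.686 to 0.787 times in the LNCaP libraries. VGLL4 transcripts were therefore below YAP1 transcripts in siNC, at 0.557 and 0.581 times their level, and above them in LNCaP, at 2.01 to 2.66 times. In siYAP1 libraries VGLL4 exceeded YAP1 by 5.51 and 5.21 times, while the VGLL4 values themselves overlapped with siNC. In siNC the order of levels was TEAD4, TEAD3, YAP1, VGLL4, TEAD2 and TEAD1, and VGLL4 (4.90 ± 0.60 FPKM) and TEAD2 (4.22 ± 0.32 FPKM; SD, n = 2) lay within their spread. In siYAP1, YAP1 (0.99 ± 0.17 FPKM) and TEAD1 (1.22 ± 0.34 FPKM; SD, n = 2) were the lowest of the expressed genes and lay within their spread. In the LNCaP control VGLL4 came first with 25.04 FPKM, ahead of TEAD3 (12.4), YAP1 (9.4), TEAD2 (9.31), TEAD4 (8.23) and TEAD1 (1.9), with 1 library and no spread. TEAD1 has the longest exonic sequence of these 6 genes, 10816 bases, against 2272 for TEAD4.

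The first comparison, siYAP1 against siNC in EnzaR cells, asked what YAP1 depletion changes, and YAP1 itself checks the labels. YAP1 fell from 54.4 ± 7.47 to 6.67 ± 0.94 CPM (SD, n = 2), which left 12.3% (log2 fold change -3.02, SE 0.154, 95% interval -3.34 to -2.70, edgeR adjusted p = 2.07e-10). Of 14948 genes tested with edgeR, 12.1% were called at an adjusted p under 0.05, 5.83% higher and 6.22% lower, and of the members 6 were tested and 1, YAP1, was called. Without siYAP1 replicate 1 only 15 of 15683 genes were called higher and 11 lower, YAP1 among the latter. Of all calls 48.4% were higher, a share that was 17.0% when libraries were scaled by their totals alone. None of the 5 partners tested passed the threshold. TEAD4 was higher in both siYAP1 libraries than in both siNC libraries (log2 fold change 0.32, interval 0.07 to 0.56, edgeR adjusted p = 0.0775, unadjusted 0.0132), and at 0.15 after GC content and transcript length were corrected for. TEAD3 was lower in both (-0.18, interval -0.43 to 0.07, edgeR adjusted p = 0.33). After that correction TEAD3 was at -0.32 (interval -0.55 to -0.09, edgeR adjusted p = 0.0952). Such separation of the 2 groups was common, since it held for 58.5% of the genes tested and for 3 of the 6 members, YAP1, TEAD3 and TEAD4. TEAD1 had a log2 fold change of -0.33 (interval -0.69 to 0.03, edgeR adjusted p = 0.207), which rested on siYAP1 replicate 1 and was -0.12 without it, -0.60 without replicate 2 and -0.0046 after that correction. TEAD2 (-0.03, interval -0.39 to 0.34) and VGLL4 (0.20, interval -0.06 to 0.47) had edgeR adjusted p-values of 0.944 and 0.293. TAZ, the paralog of YAP1, had 12 counts in siYAP1 and 7 in siNC. Its scaled ratio was 1.93 with an exact binomial interval of 0.70 to 5.77, so a change was not detectable at this depth.

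**Figure D3:**
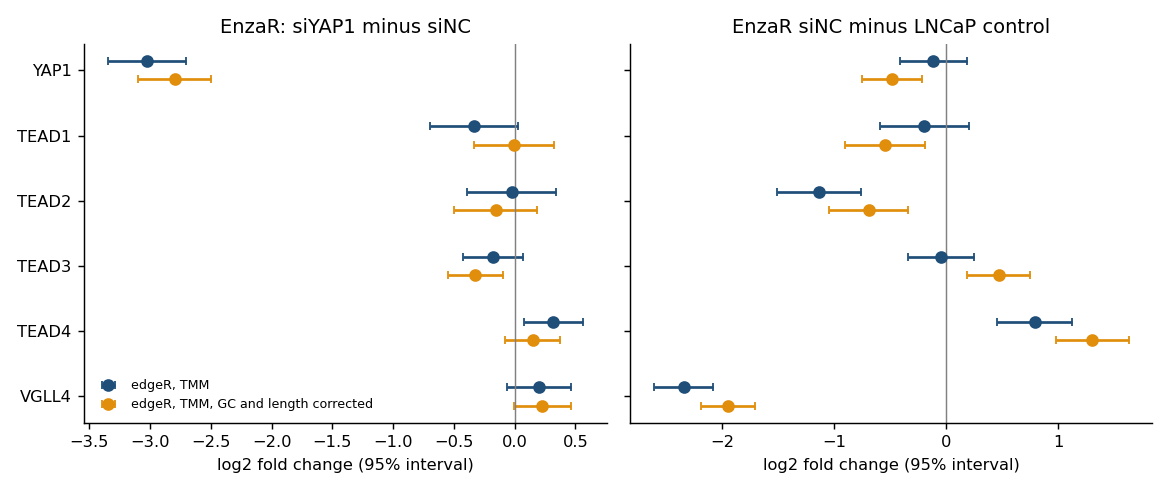
Log2 fold changes with 95% intervals (horizontal axes) of 6 genes for siYAP1 minus siNC in EnzaR cells and for EnzaR siNC minus LNCaP control, from edgeR with TMM scaling and with GC content and length corrected for. In the left panel YAP1 alone lies far from 0, at -3.02. In the right panel TEAD3 alone changes its side of 0 between the settings, and only VGLL4, TEAD2 and TEAD4 have intervals that exclude 0 under both.

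The second comparison set EnzaR siNC against the LNCaP control, where cell line, enzalutamide in the medium and siRNA transfection differ together and cannot be told apart. The single control library was assumed to vary like the EnzaR groups. VGLL4 was lower in EnzaR (32.8 ± 3.54 CPM, SD, n = 2, against 167 CPM; log2 fold change -2.34, SE 0.128, edgeR adjusted p = 2.7e-14), a fold of 5.08. TEAD2 was lower as well (12.6 ± 1.14 against 27.6 CPM; -1.13, SE 0.182, edgeR adjusted p = 7.09e-06). TEAD4 was higher (32.1 ± 0.63 against 18.6 CPM; 0.79, SE 0.163, edgeR adjusted p = 0.000171). These were 3 of the 6 members tested, in a comparison that called 58.4% of 17537 genes, 29.8% higher and 28.6% lower, so the share of members called is near that of all genes. The sizes place VGLL4 among the 7.51% of genes with a value as low or lower, TEAD2 among the 18.5% as low or lower and TEAD4 among the 25.6% as high or higher. YAP1 did not pass the threshold (-0.11, interval -0.41 to 0.18, edgeR adjusted p = 0.514), nor did TEAD1 (-0.19, interval -0.59 to 0.20, adjusted p = 0.398) or TEAD3 (-0.04, interval -0.34 to 0.25, adjusted p = 0.807). These last 3 depended on the processing. When a smooth trend of counts with GC content and transcript length was removed from each library, YAP1 and TEAD1 were called lower at -0.49 and -0.55 (edgeR adjusted p = 0.00202 and 0.00756) and TEAD3 was called higher at 0.47 (edgeR adjusted p = 0.00452), while TEAD2, TEAD4 and VGLL4 were called at -0.69, 1.30 and -1.95. Of all 17537 genes, the fit with that correction called 5518 higher and 4167 lower. With the mean of all 4 LNCaP libraries in place of the control, TEAD1 was called lower at -0.59 (edgeR adjusted p = 0.000464). That fit called 6061 genes higher and 5834 lower. In CPM, the 4 EnzaR libraries did not overlap with the 4 LNCaP libraries for 4 of the 6 members, TEAD1, TEAD2, TEAD4 and VGLL4, beside 63.1% of the genes tested.

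The third set of comparisons asked what EnzaR vesicles do to LNCaP cells, with 1 library per treatment, no replicate check and no test. Log2 ratios were computed with a prior count of 2 for genes with at least 10 CPM in either library, with 95% exact binomial limits for counting error only. Of the 6 members above that level, 0 were 2-fold higher or lower in any of the 5 comparisons. Changes of that size were rare among all genes: against the control, 0.0559% were 2-fold higher and 0.0559% lower in EV-siNC, 0.244% and 0.188% in EV-siYAP1, and 0.0225% and 0.101% in EV-siCII. Against EV-siNC, the shares were 0.0111% and 0.0442% in EV-siYAP1 and 0.0112% and 0.0669% in EV-siCII. Against the control TEAD1 had the largest ratios of the 6, and against EV-siNC TEAD2 did. TEAD1 was at 0.51 (0.32 to 0.71) in EV-siNC, 0.64 (0.45 to 0.83) in EV-siYAP1 and 0.43 (0.23 to 0.63) in EV-siCII, each against the control. These ratios share 1 control library, and the replicates of EnzaR cells differed from each other in TEAD1 by -0.23 in siNC and 0.51 in siYAP1. After the same GC and length correction the ratios of TEAD1 were 0.19, 0.29 and 0.15. In EV-siCII those of TEAD2 (-0.29), VGLL4 (-0.22) and TEAD4 (0.18) were then larger in size.

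YAP1 transcripts of the recipient cells lay close together whichever vesicles they received. Its log2 ratio to the control was 0.19 (0.08 to 0.31) in EV-siNC, 0.07 (-0.05 to 0.20) in EV-siYAP1 and 0.17 (0.05 to 0.29) in EV-siCII. The GC and length correction turned these ratios to -0.013, -0.13 and -0.0013. In EV-siYAP1 against EV-siNC the uncorrected ratio was -0.12 (-0.24 to -0.01). The replicates of EnzaR cells differed in YAP1 by -0.28 in siNC and by 0.28 (-0.11 to 0.69) in siYAP1. The latter rests on 91 and 126 counts, below 10 CPM. TEAD2 was lower in EV-siYAP1 and EV-siCII than in EV-siNC, at -0.24 (-0.44 to -0.05) and -0.29 (-0.48 to -0.09), and than in the control, at -0.32 (-0.51 to -0.13) and -0.36 (-0.56 to -0.17). The replicates of EnzaR cells differed in TEAD2 by 0.18 in siNC and -0.34 in siYAP1. VGLL4, with 2592 to 2976 counts per LNCaP library and so the narrowest limits, was at -0.07 (-0.14 to 0.00), -0.20 (-0.28 to -0.12) and -0.24 (-0.31 to -0.16) against the control in EV-siNC, EV-siYAP1 and EV-siCII. EnzaR replicates differed in VGLL4 by -0.22 in siNC and 0.21 in siYAP1. TEAD3 had its largest ratio in EV-siYAP1 against EV-siNC, 0.21 (0.05 to 0.36), and TEAD4 in EV-siYAP1 against the control, -0.26 (-0.50 to -0.03). The EnzaR replicates differed by 0.02 and -0.02 in TEAD3 and by -0.04 and -0.01 in TEAD4. WWTR1 stayed at 2 counts in every LNCaP library, and VGLL1 and VGLL3 at 0.

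**Figure D4:**
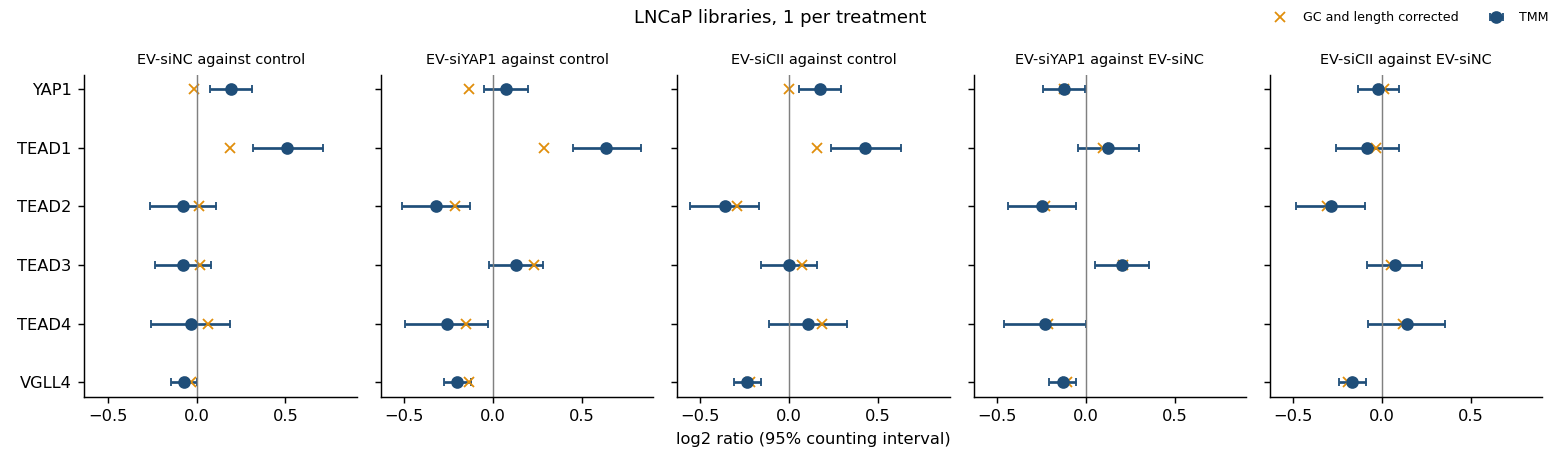
Log2 ratios (horizontal axes) of 6 genes in 5 comparisons of LNCaP libraries, with 95% counting intervals, and the same ratios after a GC and length correction (crosses). TEAD1 lies furthest to the right against the control, between 0.43 and 0.64, and moves to between 0.15 and 0.29 with the correction.

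Upstream of YAP1, 23 of 25 Hippo components were tested in siYAP1 against siNC, with 0 higher and 5 lower (median log2 fold change -0.27, beside -0.03 over all genes, of which 5.83% were called higher and 6.22% lower). The kinases TAOK3, TAOK1 and MAP4K4, which act on the MST and LATS kinases, had log2 fold changes of -0.68 (SE 0.179), -0.48 (SE 0.126) and -0.44 (SE 0.11), with edgeR adjusted p-values of 0.0212, 0.0213 and 0.0176. The atypical cadherin gene FAT1 was at -0.41 (SE 0.119, edgeR adjusted p = 0.0304). The angiomotin family gene AMOTL2, which binds YAP1 and is also listed as a target, went from 18.7 and 16.6 CPM in siNC to 11.5 and 13.3 in siYAP1 (-0.51, SE 0.159, edgeR adjusted p = 0.0412). AMOTL2 was the 1 of 12 tested YAP/TAZ targets that was called, with 0 higher, and the median over the targets was -0.27. With 1 EnzaR library left out, which leaves 1 library in a group, fewer Hippo components were called, as were fewer genes in all. The median of the Hippo components was then -0.44 to -0.22 and that of the targets -0.39 to -0.13. After the GC and length correction 1 Hippo component was called, AMOTL2, with a median of 0.00. That fit called 512 of 14948 genes higher and 213 lower. DESeq2 called 3 Hippo components lower and 0 targets, beside 467 of 9490 genes lower. CCN2 and ANKRD1, the targets most used as reporters of YAP1, were near or at 0, with at most 5 counts and 0 counts in any library. Of 16 other DNA-binding partners of YAP1, TAZ or TEADs, 12 were tested and 2 were higher, the AP-1 genes JUND (0.52, SE 0.105, edgeR adjusted p = 0.00531) and JUNB (0.37, SE 0.107, edgeR adjusted p = 0.0308), and 0 lower. JUND and JUNB were at 0.25 and 0.14 after the GC and length correction and not called (edgeR adjusted p = 0.0931 and 0.441).

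The same lists were counted in EnzaR siNC against the LNCaP control, where 29.8% of all genes tested were called higher and 28.6% lower. Of 24 Hippo components tested, 5 were higher and 6 lower (median -0.24, beside 0.00 over all genes). With the mean of the 4 LNCaP libraries in place of the control, 5 were higher and 13 lower (median -0.42). Of all 17537 genes, 6061 were then higher and 5834 lower (median -0.02). With the GC and length correction, against the control, 6 Hippo components were higher and 7 lower (median -0.07). That fit called 5518 of all genes higher and 4167 lower (median 0.09). The calls named next come from the uncorrected fit against the control. The kinase cofactor MOB1A (1.47, SE 0.195), AMOTL2 (0.83, SE 0.212), the kinase STK4 (0.63, SE 0.203) and NF2, encoding merlin (0.38, SE 0.123), were higher. The fifth, LATS1 (0.41, SE 0.178), fell outside the rule for naming genes and was picked after its value was seen. It was at 21.1 and 21.3 CPM in siNC and 15.9 in the control, but at 23.7, 25.1 and 22.8 CPM in EV-siNC, EV-siYAP1 and EV-siCII, all above siNC. AMOT (-1.32, SE 0.176), the cadherin ligand gene DCHS1 (-1.63, SE 0.307) and the casein kinase genes CSNK1E (-0.63) and CSNK1D (-0.60) were lower, the last 2 not after the GC and length correction. Of 14 targets, 4 were higher and 4 lower (median 0.07), and with the correction 6 were higher and 3 lower (median 0.29). IGFBP3, an insulin-like growth factor binding protein, stood at 169 and 138 CPM in siNC and 9.91 in the LNCaP control (3.96, SE 0.176), and CCDC80, AMOTL2 and CCN1 were higher by 1.5, 0.83 and 0.82. ARHGEF17, ASAP1 and PTPN14 were lower at -0.88, -1.31 and -0.78, and FJX1 had 3 counts in siNC against 17 (ratio 0.0863, interval 0.0162 to 0.298). Of 13 other partners, 3 were higher and 4 lower (median -0.16), and with the correction 5 were higher and 3 lower (median 0.22). RUNX1 had 145 counts in siNC and 2 in the control (ratio 35.4, interval 9.63 to 295), RUNX2 was higher by 3.28 (SE 0.473) and SMAD2 by 0.52 (SE 0.145). JUN was lower at -2.03 (SE 0.11), with FOSL2 at -1.38 and SMAD3 at -1.28, and JUND at -0.32, which turned to 0.61 after the GC and length correction. All calls named here had an edgeR adjusted p under 0.05. With the correction STK4 (0.40), SMAD2 (0.18) and ARHGEF17 (0.05) were no longer called, with edgeR adjusted p-values of 0.0831, 0.294 and 0.785.

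The genes most like each member in pattern were found by Pearson's r of log2 CPM over the 8 libraries among 10603 genes with a mean of at least 5 CPM, as a description with no p, since the 8 libraries come from 2 lines and share treatments. YAP1 was most like ZNF776, STX7 and ZNF697 (r = 0.979, 0.978 and 0.974), each of which was low in the 2 siYAP1 libraries. TEAD1 was most like PPP1R3D (r = 0.997), INTU (0.992) and MOB1B (0.989), the last a cofactor of the LATS kinases. TEAD2 was most like B3GNT4, HES6 and LRSAM1 (r = 0.993, 0.993 and 0.988) and TEAD3 like BCL10, MAN1C1 and RABGAP1L (0.966, 0.958 and 0.944). TEAD4 was most like WARS1 (r = 0.999), SPATA33 and ARHGEF1 (both 0.996), high in EnzaR libraries and highest in siYAP1. VGLL4 was most like GATD1, RGS12 and SNN (all 0.999), whose levels were higher in the 4 LNCaP libraries.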

How the data were processed

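RNA of EnzaR and LNCaP cells was sequenced in 8 libraries, grouped here by their labels. The authors deposited raw read counts per gene, and FPKM, which equalled count over exonic length and column total, per the file's own columns. Named in the submitters' processing notes, with no order or role, are HISAT2 2.0.1, HTSeq 0.6.1, cutadapt 1.9.1 and DESeq2, and hg19 (GRCh37) as build. Not given in the sources used here are the strand setting and annotation release. Symbols were matched for 39538 genes, holding 98.96% of counts, and 0 rows named no gene.

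Counts of all genes that passed filterByExpr were fitted by robust quasi-likelihood after TMM scaling (edgeR 4.0.16, R 4.3.3), and p-values were adjusted by Benjamini-Hochberg and called below 0.05. siYAP1 was compared with siNC on 4 libraries, and EnzaR siNC with the LNCaP control on all 8 in 6 groups. Standard errors were the log2 fold change over the square root of F. Alternatives were DESeq2 1.42.0, limma-voom 3.58.1, other scalings, no filter, a replicate block, each EnzaR library left out, and a GC and length correction (mgcv 1.9.3, a smooth per library, GC content known for 97.3% of genes). A crossed replicate block, and leaving out siYAP1 libraries in the line comparison, were added after seeing the data. Named genes were the 9 members, up to 4 called genes per pathway list and direction, and the 3 most alike in pattern. The members and lists were chosen with earlier results of these data known. The edgeR fits were also run on simulated counts with known changes and no trend in GC content or length. That run cannot show how such trends affect the fits here. Some genes of the luminal marker list, and the list's sum, are not reported here.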

Additional observations from a re-analysis of the deposited data

How the results depend on the processing

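Of the values recomputed under alternatives, 147 that answer a comparison and 258 for single genes were classed as kept. For log2 fold changes this meant the same direction and side of the threshold, or a move within the spread. Counts of called genes have no spread, and some classed as kept changed much. In the line comparison DESeq2 called 3869 genes higher and 3662 lower, against 5221 and 5015. Of the values not classed as kept, 29 and 4 moved further, 1 and 5 reversed, and 1 and 3 passed the threshold only under the alternative. In siYAP1 against siNC, 872 genes were higher and 930 lower. With library totals alone 291 were higher and 1416 lower (17.0% of calls higher, against 48.4%, with a shift of the median to -0.13), and with the GC and length correction 512 and 213. With DESeq2, 467 were lower. The replicate block gave 564 higher, and a crossed replicate block, added after seeing the data, gave 1518 higher and made TEAD4 the 1 member called higher (0.32, edgeR adjusted p = 0.0472, range over the other settings 0.0665 to 0.482). Replicate numbers did not pair the libraries by the labels, and deviations of equal numbers correlated at -0.179 over 9072 genes; the block changed no call of a member. Leaving out 1 library at a time gave 15 to 940 genes higher and 11 to 829 lower, the lowest values without siYAP1 replicate 1, and YAP1 was called lower in each case. TEAD2 ranged from -0.22 to 0.16 with 1 library left out, turning to 0.08 without siNC replicate 2 and to 0.16 without siYAP1 replicate 2. In the line comparison, the GC and length correction gave 2 members higher and 4 lower, beside 5518 and 4167 of all 17537 genes tested. YAP1 was then at -0.49, TEAD1 at -0.55 and TEAD3 reversed to 0.47. The mean of the LNCaP libraries put TEAD1 at -0.59. Leaving out a replicate put YAP1 between -0.26 and 0.021, the latter without siNC replicate 2. In LNCaP, EV-siNC against control had 5 genes 2-fold higher, and 3 with DESeq2 size factors, 9 with library totals and 2 with the GC and length correction. EV-siYAP1 against control had 22, and 40 with library totals and 2 with the correction, and EV-siCII had 2, and 0 with it. YAP1 turned to -0.013 in EV-siNC and to -0.0013 in EV-siCII with the correction. From raw counts with no length, the TEAD shares in siNC were 18.0% for TEAD1, 36.8% for TEAD3 and 32.5% for TEAD4, and in the LNCaP control 19.6%, 26.5%, 36.1% and 17.8% for TEAD1 to TEAD4. These shares differ from those per length only by the division by exonic length, and without it TEAD3 rather than TEAD4 led in siNC. The cause of the other shifts was not tested. Depth limits WWTR1, VGLL1 and VGLL3, where a few counts allow no statement on change.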
